A study of Homo sapiens with 7 samples.

Results

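UBE2D3 encodes a ubiquitin-conjugating enzyme, and its locus holds, by count of clusters at most 1000 nt apart, the most crowded stretch in a list of eIF3a read clusters from HEK293T cells. It did not have the most clusters when they were joined at 50 or 100 nt, and it shared first place at 5000 nt. The clusters described here are all those listed on the minus strand, the strand the gene lies on, whose interval overlaps chr4:103715500-103749300 on hg19. There were 10 of them among 3604 clusters in the whole list, 3566 of which lay on primary chromosomes. The locus was chosen by the number of clusters lying close together there, so that number and their spacing are given as a description and not tested. The gene name comes from the coordinates of that window, which is 33801 nt long and does not cover the whole of UBE2D3, 74513 nt in RefSeq on GRCh38.p14. No hg19 annotation was used here to check it or to place a cluster in an exon, an intron or an untranslated region.

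Ubiquitin is passed from an activating enzyme (E1) to a cysteine of a conjugating enzyme (E2), and from there to a target protein with the help of a ubiquitin ligase (E3). UBE2D3 is an E2 of the UBE2D family, which works with many different ligases. eIF3 is an initiation factor of many subunits that recruits the small ribosomal subunit to mRNAs, and eIF3a is its largest part. Sites of eIF3 on mRNA have been studied mostly in 5′ untranslated regions, the part of an mRNA ahead of the start codon.

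The data came from PAR-iCLIP of eIF3a in HEK293T, an established line from human embryonic kidney with the SV40 large T antigen. The labels give 2 replicates, which had the same handling: 8 h with 4-thiouridine, a uridine analogue that crosslinks to protein, then 354 nm light and immunoprecipitation with an antibody against eIF3a. They name no genotype change, no heat shock and no control sample for these replicates. The remaining 5 samples of the series were m6A libraries and were not analysed here. In iCLIP, reverse transcription tends to stop at the crosslinked base, so the 5′ end of a read lies next to a contact.

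The deposited list gave each cluster an interval, a strand, a score and a coverage profile, without saying which replicate a read came from. The values therefore have no replicate error and no group to be compared with. The score was the highest read coverage in the cluster, in reads. Profiles were taken apart into single reads. All 3113 distinct profiles divided without remainder into reads of 25 nt, and 0 of them into reads of 24 or 26 nt. Library depth is unknown. Only reads in listed clusters were counted.

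RefSeq lists 6 transcript starts for UBE2D3 on GRCh38.p14, and 5 of these lie within 2318 nt of each other. The remaining start is 40715 nt further upstream. The bases around the 6 starts are shown because they are the ways listed there for a UBE2D3 mRNA to begin. Which of them HEK293T cells use was not tested. Each line holds 30 bases on the minus strand, with the first 15 transcribed bases in capitals.
Start 1, chr4:102868881-102868910: gagtgacgtacgctcGCGGCGGACTGCCGA
Start 2, chr4:102828166-102828195: gcgctcttaccagtcTGGGGAATTCCATTT
Start 3, chr4:102827934-102827963: agtcgtctcctcgatACCAAGTGAGGAAAC
Start 4, chr4:102827537-102827566: gtggcagctggcagtAGTTCCGTCAGAGCG
Start 5, chr4:102826844-102826873: ctctcccacccgggtCTCTTCCTTTCTAGA
Start 6, chr4:102825848-102825877: cacttcctgtattttGTAGTTGCAGCTTTT

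Several starts so close together were unusual in that table. Among 27326 genes, 55 (0.201%) had 5 or more starts within as short a distance, whereas 22144 (81.0%) had 1 start. The other members of the family, UBE2D1, UBE2D2 and UBE2D4, had 1 start each. From start 2 onward the steps to the next start were 232, 397, 693 and 996 nt. These positions belong to another genome build than the clusters, and no start was set beside a cluster.

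The 6 starts differed in their first bases. Start 5 began with C and ran on through 12 pyrimidines, while starts 1 to 4 and start 6 did not begin with C. A C followed by a pyrimidine run is the form of the 5′ terminal oligopyrimidine motif known from mRNAs of ribosomal proteins and translation factors. A run of at least 12 beginning with C at the first base was found in 149 of 35116 start windows (0.424%), and one of at least 5 in 1429 (4.07%). Uridine is the base that 4-thiouridine replaces. Its DNA letter, T, made up 10% of the first 50 bases after start 1, 14% after start 3, and 22%, 24%, 26% and 24% after starts 2, 4, 5 and 6. The median over all start windows was 20%, with quartiles of 14% and 26%, so start 1 lay below the lower quartile. GGACT is one form of the m6A consensus, and AGTCC is the same sequence read on the opposite strand. Either occurred in 3 of the 6 windows of 300 nt, beside 44.2% of all such windows. In each window 250 nt lie before the start, so this does not count possible m6A sites in transcripts from these starts. Only after start 1 did GGACT lie within the first 50 transcribed bases, and it can be seen in the line above.

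Numbered from the upstream side, which is the right on this strand, clusters 1 to 9 formed the crowded stretch and cluster 10 lay alone far downstream. The stretch ran from 103747666 to 103749186, over 1521 nt, and held 82 reads. With cluster 10 the locus held 89 reads. Clusters joined at gaps of at most 1000 nt gave 2877 such stretches on the primary chromosomes, of which 2361 held a single cluster. The next largest after UBE2D3 held 7 clusters each, and there were 4 of these. In any stretch of one strand as long as the window used here, 33801 nt, the list held at most 9 clusters elsewhere, on chromosome 5, against 10 here.

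**Figure D1:**
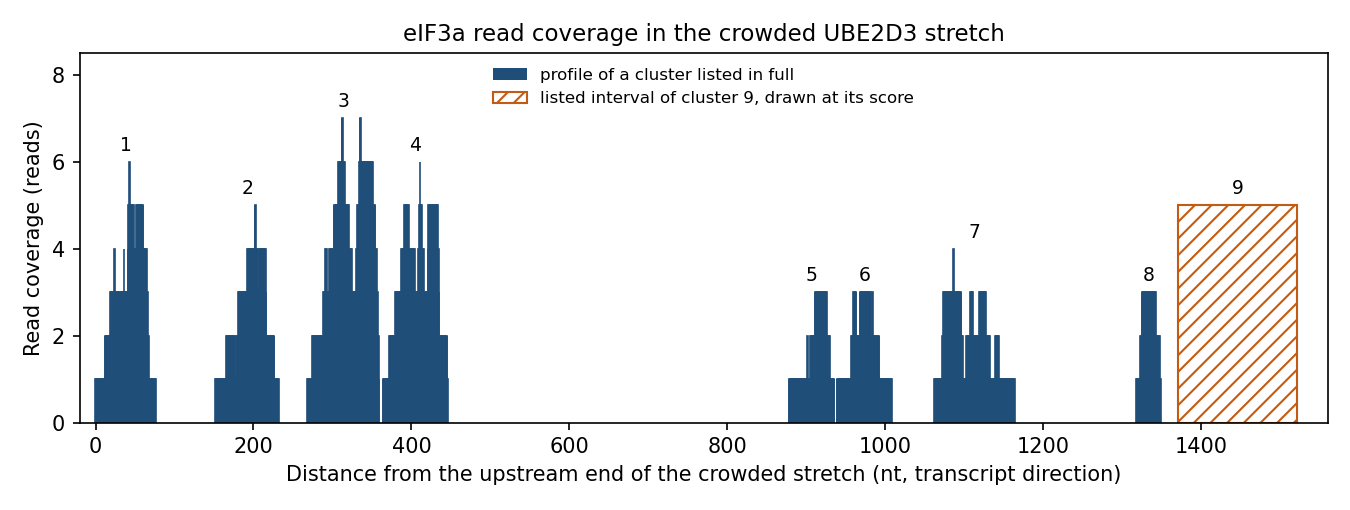
Read coverage (reads, vertical axis) against distance in nt from the upstream end of the crowded stretch, in the direction of transcription. Filled shapes are the profiles of clusters 1 to 8, and the hatched box is the longest listed interval of cluster 9 drawn at its score of 5, because that cluster was not listed in full. Clusters 1 to 4 stand together at the upstream end, and an empty space of 432 nt separates them from cluster 5.

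The clusters fell into 3 groups when split at gaps over 100 nt. Clusters 1 to 4 took up 446 nt at the upstream end, from 103748741 to 103749186. They held 43 of the 82 reads (52.4%). Clusters 5 to 7, from 103748023 to 103748308, held 17 reads (20.7%), and clusters 8 and 9, from 103747666 to 103747868, held 22 (26.8%). Reads per length of profile had the same order as these shares. The upstream group had 12.9 reads per 100 nt of profile, the downstream group 10.6 and the middle group 7.36. All 4 upstream clusters scored 5 to 7, and the middle 3 scored 3 or 4.

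The upstream group opened with cluster 1 at 103749111 to 103749186. It scored 6 with 9 reads, which began 1, 13, 20, 25, 37, 42, 43, 44 and 53 nt from the upstream end of its 77-nt profile. The 3 neighbouring ends at 42 to 44 nt lay at its summit, a single base at 44 nt. Cluster 2, at 103748955 to 103749034, followed after a gap of 76 nt. Its 8 reads over 81 nt reached a score of 5 at 51 and 52 nt.

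Cluster 3, at 103748828 to 103748918, came 36 nt further downstream and had the highest score of the locus, 7. Its 15 reads covered 92 nt, or 16.3 reads per 100 nt, the densest of the 10. Its coverage reached 7 at 2 separate places, 45 to 46 nt and 68 to 69 nt from the upstream end. The second of these followed 4 read ends on neighbouring bases, at 65, 66, 67 and 68 nt, the longest such run at the locus. Cluster 4, at 103748741 to 103748822, lay only 5 nt beyond cluster 3. It held 11 reads over 83 nt with a score of 6, reached at 48 nt, where 3 reads began on neighbouring bases (46 to 48 nt).

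The gap of 432 nt that followed cluster 4 was the longest in the stretch. The next clusters were thin. Cluster 5, at 103748252 to 103748308, scored 3 with 4 reads, and cluster 6, at 103748179 to 103748247, scored the same with 5. They were 4 nt apart, the smallest gap of the locus. Cluster 7, at 103748023 to 103748124, scored 4 with 8 reads spread over 103 nt, after a gap of 54 nt. No read of clusters 5, 6 or 7 began on a base next to another read's first base.

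The smallest and the largest cluster of the locus were neighbours at the downstream end. Cluster 8, at 103747838 to 103747868, held 3 reads over 32 nt, with ends at 1, 6 and 8 nt. It lay 154 nt from cluster 7. Its simple profile was listed at 3 other loci, and so few reads allow few different profiles. Profiles of the other 9 clusters were not listed at any other locus. Cluster 9, at 103747666 to 103747815, followed after 22 nt and held 19 reads, the most at the locus, over the longest profile, 175 nt. Its score was 5. Its reads were spread out, and their ends ran from 1 to 151 nt with steps of up to 22 nt.

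Cluster 10, at 103730957 to 103731012, lay 16653 nt downstream of cluster 9, still inside the window. It held 7 reads over 60 nt, and its score of 6 equalled those of clusters 1 and 4. Read ends at 15, 16 and 17 nt opened its summit, which ran from 17 to 25 nt.

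**Figure D2:**
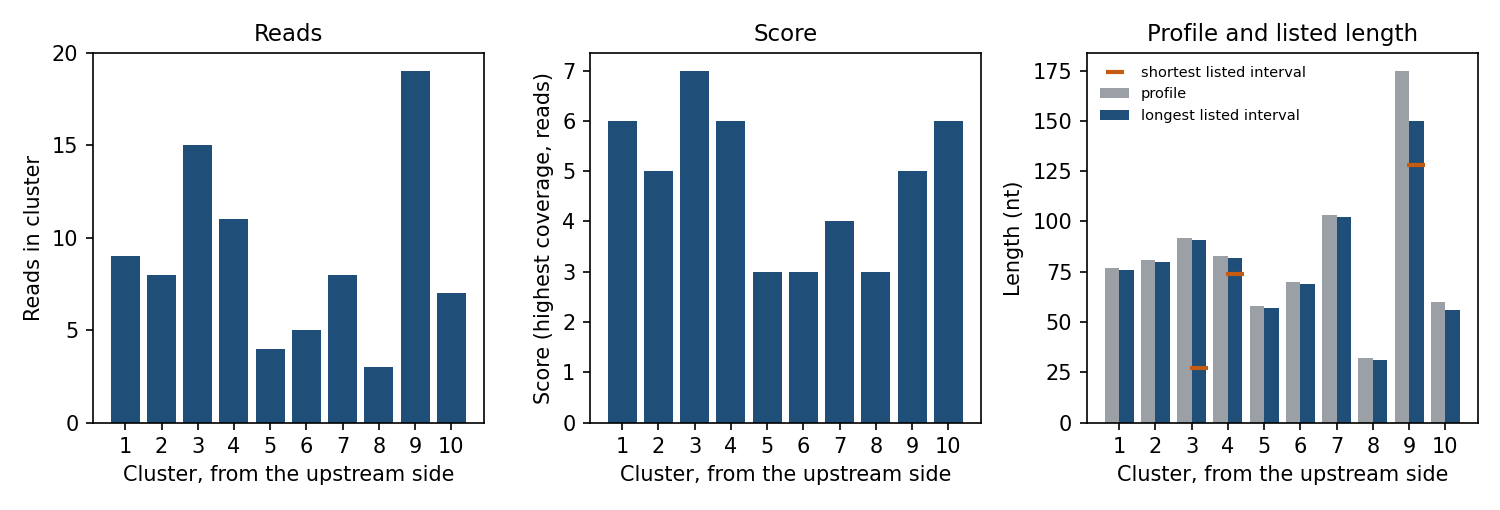
Reads, score (highest coverage, in reads) and lengths in nt for the 10 UBE2D3 clusters in order from the upstream side. Cluster 9 has the most reads, 19, and the longest profile, 175 nt, but cluster 3 has the highest score, 7; orange marks show the shortened intervals of clusters 3, 4 and 9.

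**Figure D3:**
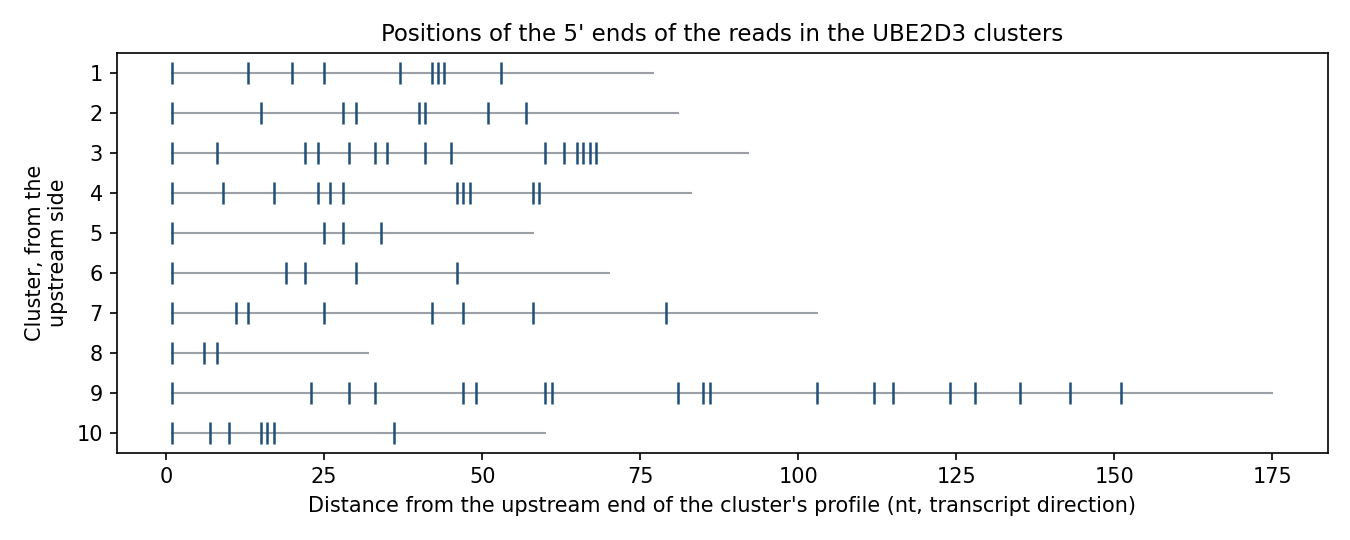
Each tick is the 5′ end of 1 read, placed by its distance in nt from the upstream end of its cluster's profile (grey line), for clusters 1 to 10. Runs of 3 or 4 ticks on neighbouring bases stand in clusters 1, 3, 4 and 10; clusters 2 and 9 have pairs only, and the 19 ticks of cluster 9 are spread over 151 nt.

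The direction in which a profile is written decides where these read ends lie, and the list itself settles it only in part. Where a profile of at least 10 reads was listed on opposite strands, it was written in reversed order in 8 pairs of loci and in the same order in 0. Profiles thus run in the same direction along the chromosome on both strands. These pairs cannot tell left to right from right to left. Left to right, the order in which intervals are written, was assumed and not tested. On that assumption the right end of a UBE2D3 profile is the upstream end. Some of the 8 pairs share a locus.

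All 89 reads at UBE2D3 began at different bases, as nearly all reads of the list did. In the other primary clusters, 10 of 34774 steps between successive read ends were of 0 nt. Read counts at this locus are therefore counts of different 5′ ends. Whether repeated reads from the same base had been removed is not known. Of the 79 steps between successive read ends within the 10 clusters, 13 (16.5%) were of 1 nt, and the median step was 6 nt. In the other 3556 primary clusters 34.0% of steps were of 1 nt, with a median of 3 nt. Many of those clusters were denser. Over the 2667 of them within the range of density found at UBE2D3, 6.90 to 16.3 reads per 100 nt, the share was 22.6% and the median step 4 nt. Clusters 1, 3, 4, 9 and 10 had 2 or 3 steps of 1 nt each and cluster 2 had 1, while clusters 5 to 8 had 0.

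In reads and score, single clusters of UBE2D3 were ordinary. Their median was 8 reads (range 3 to 19) beside 6 in the other primary clusters (quartiles 4 and 12, range 2 to 172). Their median score was 5, as in the others. Their highest, 7, compares with 24, which is close to the ceiling of 25 for reads with different starts. Cluster 9 had more reads than 85.1% of primary clusters, and cluster 3 more than 79.8%. At the other end, 1.09% of primary clusters had fewer reads than cluster 8, and 15.5% had the same number, 3. Profiles were longer, with a median of 79 nt beside 61 nt. The profile of cluster 9 was longer than 96.0% of those on the primary chromosomes. The median density was 10.4 reads per 100 nt beside 10.7 in the other primary clusters and 11.6 in the clusters of the other crowded stretches. Summed over clusters, the locus held 10.7 reads per 100 nt and the other primary clusters 14.1.

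Compared with the other 32 stretches of 4 or more clusters, the UBE2D3 stretch was long rather than dense. Its 1521 nt exceeded all 32, whose spans ran from 217 to 1234 nt with a median of 601 nt. Its 82 reads exceeded those of 25 stretches, equalled 1 and fell short of 6. The median of 8 reads per cluster was close to the 8.5 typical of the others. Reads per 100 nt of profile were 10.6, lower than in 22 of the 32. Listed intervals covered 48.5% of the UBE2D3 span, and the median for the others was 64.7%. The largest cluster held 23.2% of the reads here, a lower share than in 31 of the 32. The number of clusters chose this stretch, and a longer span and a smaller share per cluster go with more clusters.

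The 4 stretches of 7 clusters were all shorter than that of UBE2D3. They lay on the minus strand, at 40041624 to 40042464 and 46126005 to 46126865 of chromosome 1, 70389138 to 70390130 of chromosome 15 and 79945906 to 79946800 of chromosome 5. Their spans were 841, 861, 993 and 895 nt and their reads 76, 88, 62 and 122, in that order. Reads per 100 nt of profile were 16.1, 11.7, 14.0 and 21.9, each above the 10.6 of UBE2D3. The share of the span listed was 49.1%, 86.3%, 42.9% and 58.1%, and on chromosome 15 it was below the 48.5% of UBE2D3. The largest cluster held 23.7%, 31.8%, 22.6% and 37.7% of the reads, again with chromosome 15 below UBE2D3. Gaps in UBE2D3 had a median of 45 nt, beside 8.5, 12, 77 and 55 nt in these. The longest gap of UBE2D3, 432 nt, was above the longest of each, 277, 46, 187 and 122 nt.

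The gaps themselves resembled those of other crowded stretches except for the longest. Of the 8 gaps in the UBE2D3 stretch, 6 were under 100 nt (75%) and 2 under 10 nt (25%). In the other 32 stretches 81.0% of 121 gaps were under 100 nt and 28.1% under 10 nt, with a median of 33 nt. Gaps over 400 nt numbered 5 there, and 5 of the 32 stretches had a longer longest gap than UBE2D3. The rank of UBE2D3 as the most crowded depended on the distance used for joining. At 500 and 2000 nt the stretch held 9 clusters and no other held more than 7. At 100 nt its largest piece held 4 clusters and at 50 nt 3, and stretches elsewhere held up to 7. At 5000 nt a stretch elsewhere reached 9 as well.

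**Figure D4:**
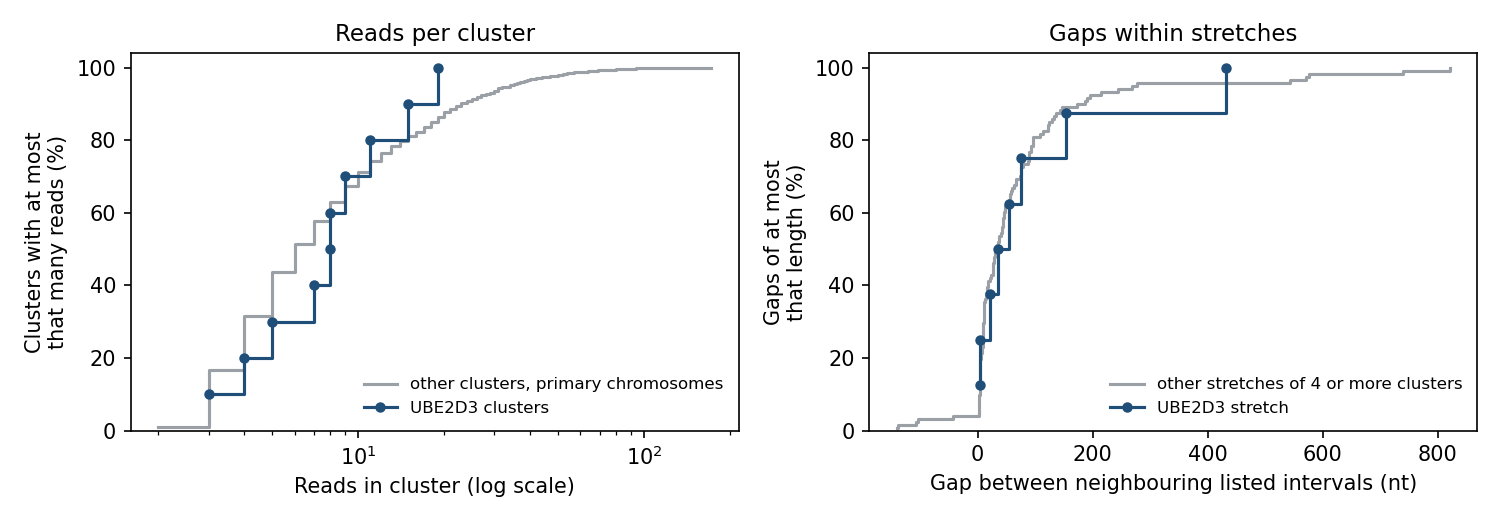
Left, the cumulative percentage of clusters against reads per cluster (log scale) for the 10 UBE2D3 clusters and the other clusters on primary chromosomes. Right, the cumulative percentage of gaps against gap length in nt (overlaps below 0) for the 8 gaps of the UBE2D3 stretch and the 121 of the other 32 stretches; the UBE2D3 steps follow the grey line up to 154 nt, and the last is at 432 nt.

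Most UBE2D3 clusters were listed in full. A full interval in this list was 1 nt shorter than its profile, and clusters 1 to 8 had that form, so 8 of 10 were complete beside 57.7% of the other primary clusters. In the other crowded stretches the share was 83.0%. Cluster 10 was listed at 56 nt for a profile of 60 nt. Cluster 9 had the greatest loss: its longest listed interval was 150 nt, 85.7% of its profile, and 25 nt were not listed.

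Clusters 3, 4 and 9 appeared in the list more than once, and they were shortened on different sides. That was 30% of the locus's clusters, beside 8.38% of the other primary clusters and 7.19% of the clusters of the other crowded stretches. Cluster 3 was listed in full and also as 27 nt at 103748892 to 103748918, which lacked the 64 downstream nt. With profiles read left to right, as assumed above, that short form did not contain the summit. Coverage inside it reached 4, against 7 in the whole cluster. Of the 15 reads, 3 began there (4 if the profile is shifted by 1 nt). Read right to left, the profile would reach 7 inside that short form. Cluster 4 was listed in full and without its 8 downstream nt, in a form that kept the coverage of 6. Cluster 9 was listed 5 times in 2 forms, 2 times with 150 nt and 3 times with 128 nt. The short form of cluster 9 lacked 22 nt at the upstream end. Only 7 of the 3566 primary clusters had 5 or more entries. Counting entries, the locus filled 16 lines of the list for its 10 clusters.

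The missing bases of cluster 9 could not all be placed upstream without touching its neighbour. The gap to cluster 8 was 22 nt. A profile reaching its full 175 nt from the listed downstream end would therefore overlap cluster 8 by 3 nt, a value uncertain by 1 nt. Among 1206 neighbouring pairs that were both listed in full, 6 overlapped. Where the 25 nt belong was not tested, and the summit of cluster 9, at 135 and 136 nt of its profile, therefore has no exact position on the chromosome.

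The UBE2D3 clusters had no listed company nearby on their strand. The next minus-strand cluster of chromosome 4 lay 2.86 Mb to the left and the next to the right was 5.34 Mb away. On the plus strand the window held 0 clusters. The nearest on that strand began 40981 nt to the right of cluster 1, where clusters at 103790168 to 103790220 and 103790227 to 103790241 held 4 and 16 reads. The list's filters are unknown, so an empty stretch does not show that contacts were absent there.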

How the data were processed

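Bowtie aligned the reads of the 2 eIF3a samples to hg19, per the submitters' processing notes. How clusters were called and filtered, and how duplicates and replicates were handled, is not given in the sources used here. Deposited by the authors was 1 list of 4013 entries. Its score is a coverage signal in whole reads, not normalized, and was the highest value of the deposited profile in every entry. Columns were read from their values, since the list had no header.

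Entries of 1 strand and profile that fitted within the profile's length were counted as 1 cluster. Reads of 25 nt were recovered from each profile, and the splitting was tested on 1000 simulated profiles, of which 100% were recovered. Coordinates count from 1 and are uncertain by 1 nt. Gaps are between listed intervals. All clusters of the window are named. The locus and the comparisons were chosen with earlier results of these data known. The pathway list of other ubiquitin genes was not used, since it needs an hg19 annotation. RefSeq start windows (300 nt, 250 of them before the start) were matched by symbol. Python 3.11.15, numpy 2.4.6 and matplotlib 3.10.9 were used.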

Additional observations from a re-analysis of the deposited data

How the results depend on the processing

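The number of UBE2D3 clusters was 10. It was 16 with every entry as deposited, 6 after merging clusters at most 50 nt apart, and 6 with scores under the median of 5 left out; each change follows from how that setting counts. Removing exact repeats left 13, and neither merging overlaps nor requiring clusters to lie wholly within the window changed the 10. The 89 reads fell to 69 with the score filter and to 70 without cluster 9. The stretch held 9 clusters when joined at 500, 1000, 2000 or 5000 nt, but 4 at 100 nt and 3 at 50 nt; the settings of 50, 100 and 5000 nt were chosen after seeing the data. The median gap of 45 nt stayed the same when shortened intervals were extended in either direction, but it could not have moved. In the stretch only cluster 9 was not listed in full. Its upstream gap of 22 nt was already below the median, and its downstream gap lies outside the stretch. The distance between midpoints had a median of 130.5 nt. Joined at 1000 nt, the stretch held more clusters than 100% of the others, also with 1 cluster per distinct profile. The stretch was chosen for that number, so this rank was fixed in advance and lends no support. Counting each profile once could hardly change it, since only cluster 8 had a profile listed at other loci. No paired analysis was possible because replicates are not told apart in the list. Clusters of 3 to 19 reads and an unknown library depth limit what can be said of any one of them.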
